A study of Homo sapiens with 7 samples.

Results

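Genes of the extracellular adenosine pathway were followed after stable knockdown of CtBP2 or CtBP1, a pair of related transcriptional co-repressors, in SKOV3, an established line of human ovarian cancer cells. The group was named by symbol and comprised 10 genes. They were the ectonucleotidases NT5E, ENTPD1 and ENTPD2, the adenosine-consuming enzymes ADA and ADK, the ADA-binding surface protein DPP4, the transporter SLC29A1 and the receptors ADORA1, ADORA2A and ADORA2B. Each gene was represented by a transcript cluster chosen by its brightness, the highest mean log2 signal over the 7 arrays, among clusters annotated with that symbol alone. For 9 of the 10 genes exactly 1 such cluster existed, so brightness decided nothing, and these 9 were among 17958 genes tested in all. ADORA2A was not analysed here, because its cluster also carries the symbol of a read-through transcript. The group was drawn up when the value of NT5E on the CtBP2 knockdown arrays was already known, so that value is given as a description.

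The series holds 2 arrays of CtBP2 knockdown clones, 3 of CtBP1 knockdown clones and 2 of scramble control clones, hybridised to Affymetrix Human Gene 1.1 ST arrays. All 7 are labelled SKOV3 in the cell line field, although the source names carry a different SKOV number for each array but the first control. The cells were infected with lentivirus and kept in medium with puromycin, the controls with a scramble construct, and no treatment or time distinguished the groups. The labels do not say which hairpins were used or whether the clones of a group were derived independently, so the spread behind the p-values is that of these 7 arrays and may be technical. The extraction protocol names a silica column kit and the design text names TRIzol, so how RNA was extracted is not settled. Knockdown was checked by western blot, per the labels, and no protein values were used here. In RNA from whole cultures, fewer cells with a transcript and less of it per cell cannot be told apart. Values are log2 signals after robust multi-array averaging (RMA), and the number of arrays limits their precision.

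Extracellular adenosine is made from released ATP in steps. ENTPD1 (CD39) and ENTPD2 remove phosphates from ATP, ENTPD1 down to AMP and ENTPD2 mainly to ADP, and NT5E (CD73) converts AMP to adenosine at the cell surface. Adenosine then signals through G protein-coupled receptors, is carried into the cell by the equilibrative transporter SLC29A1 (ENT1), is deaminated to inosine by ADA, which in human cells can be held at the surface by DPP4 (CD26), or is phosphorylated back to AMP by ADK. In tumours the pathway is known mainly for the suppression of immune cells by adenosine.

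The targeted genes and the cell identity were checked first. CTBP2 had log2 signals of 4.64 and 4.22 with CtBP2 knockdown, against 5.70 and 6.14 in the scramble controls. CTBP1 had 5.11, 6.13 and 6.13 in the group labelled CtBP1 knockdown, against 5.69 and 6.37 in the scramble controls. Its signal did not separate them from the controls, and the label is used here without support from that gene. Of the epithelial markers KRT8 had signals of 8.35 to 9.35, KRT7 ranged more widely, from 5.65 to 9.64, and ERBB2, known to be amplified in SKOV3, had 8.52 to 9.58, while CDH1 and CLDN4 were dim on every array, at 2.36 to 3.27 and 2.43 to 3.26. The 5 leukocyte markers measured lay between 1.50 and 2.59 and the 4 endothelial markers between 1.75 and 2.33, where the median over all genes and arrays was 3.23. The 5 fibroblast markers lay between 1.22 and 3.32, the highest of them COL1A1 at 2.70 to 3.32, while DCN and LUM stayed at or below 1.63. Scramble control 1 stood apart, with correlations of 0.926 to 0.941 with the other arrays, which correlated at 0.971 to 0.993 among themselves, and with an interquartile range of 2.20 against 2.85 to 3.15 elsewhere. Both comparisons with scramble share these controls, and values that move strongly with scramble control 1 are also given without it.

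The promoters of the 4 genes whose unadjusted p was under 0.05 in both comparisons that involve the CtBP2 knockdown (limma) are printed for reference. They are the 250 bases before the annotated start in RefSeq (GRCh38.p14), read 5′ to 3′ on the strand of the gene, at chr6:85449833-85450082 (+) for NT5E, chr20:44651700-44651949 (-) for ADA, chr2:162074216-162074465 (-) for DPP4 and chr17:15944880-15945129 (+) for ADORA2B. Capitals mark matches on either strand to 5 short motifs.

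NT5E: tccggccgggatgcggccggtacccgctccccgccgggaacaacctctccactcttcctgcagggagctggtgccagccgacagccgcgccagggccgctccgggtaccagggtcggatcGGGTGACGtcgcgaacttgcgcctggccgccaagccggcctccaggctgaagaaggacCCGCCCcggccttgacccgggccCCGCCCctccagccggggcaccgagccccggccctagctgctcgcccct
ADA: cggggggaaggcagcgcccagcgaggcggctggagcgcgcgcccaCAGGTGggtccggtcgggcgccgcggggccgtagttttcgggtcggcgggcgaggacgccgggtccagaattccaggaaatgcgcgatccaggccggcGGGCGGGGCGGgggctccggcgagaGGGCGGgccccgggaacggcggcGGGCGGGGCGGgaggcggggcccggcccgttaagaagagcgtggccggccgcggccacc
DPP4: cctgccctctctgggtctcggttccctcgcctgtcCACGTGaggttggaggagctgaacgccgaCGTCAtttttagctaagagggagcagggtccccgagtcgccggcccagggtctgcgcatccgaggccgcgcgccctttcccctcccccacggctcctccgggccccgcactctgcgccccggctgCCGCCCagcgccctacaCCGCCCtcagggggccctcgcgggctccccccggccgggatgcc
ADORA2B: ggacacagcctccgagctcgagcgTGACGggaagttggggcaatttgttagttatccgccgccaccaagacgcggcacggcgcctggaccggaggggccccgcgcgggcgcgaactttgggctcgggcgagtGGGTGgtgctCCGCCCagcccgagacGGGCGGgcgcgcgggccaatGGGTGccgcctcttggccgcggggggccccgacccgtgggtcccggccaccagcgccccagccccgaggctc

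The motifs were picked after the signals had been seen, for factors that work with CtBP or that are known to act on genes of this pathway. They were CACCTG, an E-box bound by the CtBP partner ZEB1, CACCC, bound by Krüppel-like factors, GGGCGG, the GC box of SP1, ACGTG, the core of the hypoxia response element, and TGACG, the core of the cAMP response element. The NT5E window held 2 GC boxes at 72 and 49 bases before the start and a TGACG at 127 bases, which overlaps a CACCC on the other strand at 130. The ADA window held an E-box at 205 bases and 5 GC boxes, of which 2 pairs overlap. In the DPP4 window the ACGTG core was read on both strands of 1 palindrome, at 215 and 214 bases, beside 2 GC boxes and 1 TGACG, and the ADORA2B window held 2 CACCC, 2 GC boxes and 1 TGACG. Of the 35116 promoter windows of this length, 42.6% held a GC box, 54.7% a CACCC, 21.2% a TGACG, 18.5% an ACGTG and 17.5% the E-box. The matches are letters in a window, and no binding was measured.

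NT5E, the enzyme that makes adenosine from AMP, had the smallest p of the 9 genes in both comparisons of the CtBP2 knockdown. Its log2 signals were 6.62 and 6.94 with CtBP2 knockdown, 5.25, 5.24 and 5.19 in the group labelled CtBP1 knockdown, and 5.05 and 4.81 in the scramble controls. Both CtBP2 knockdown arrays lay above all 5 others, and the group means were ordered CtBP2 knockdown, CtBP1 knockdown and scramble, with no overlap between neighbours. The log2 difference of the CtBP2 knockdown from scramble was 1.85 ± 0.16 (SE, limma; 95% interval 1.47 to 2.24), or 3.61-fold. By unadjusted p it ranked 2 of 17958 genes and by size 84, yet it did not pass the test over all genes (limma, adjusted p = 0.153). The group was drawn up with the NT5E value already known. The ranks, intervals and p given for NT5E are therefore a description and not an independent test. Without scramble control 1 the difference was 1.97 (adjusted p = 0.18), and without scramble control 2, which leaves the array that stands apart as the lone control, it was 1.73 (adjusted p = 0.00805). Its adjusted p ran from 0.00805 to 0.93 over 16 alternatives. Against the arrays labelled CtBP1 knockdown NT5E differed by 1.56 ± 0.14, or 2.94-fold (adjusted p = 0.129, and 0.0155 to 1 over the alternatives). This difference involves no scramble signal, but its SE and adjusted p rest on the spread of all 7 arrays, the controls included. The arrays labelled CtBP1 knockdown differed from scramble by 0.30 ± 0.14 (95% interval -0.06 to 0.65, adjusted p = 0.734).

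**Figure D1:**
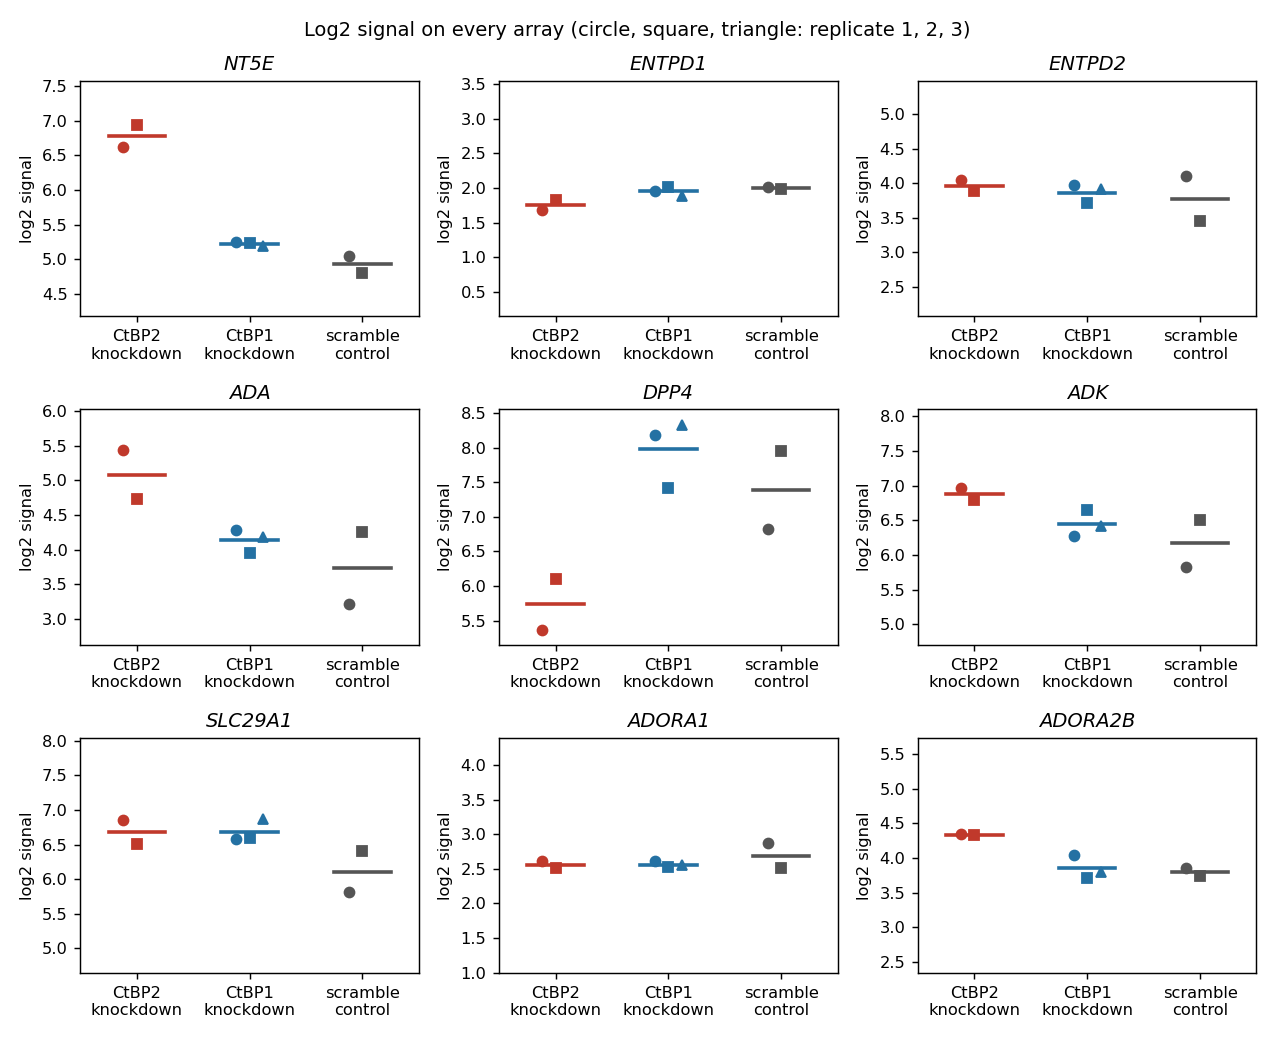
Log2 signal (vertical axis, the same span of 3.4 units in every panel) of 9 adenosine pathway genes on the arrays labelled CtBP2 knockdown (red), CtBP1 knockdown (blue) and scramble control (grey), with a line at each group mean. NT5E, ADA, ADK and ADORA2B were highest on both CtBP2 knockdown arrays and DPP4 and ENTPD1 lowest, and the scramble arrays were far apart for ADA and DPP4.

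The ectonucleotidases upstream of NT5E did not follow it. ENTPD1 had log2 signals of 1.68 and 1.83 with CtBP2 knockdown, 1.96, 2.01 and 1.88 in the group labelled CtBP1 knockdown, and 2.01 and 1.98 in the scramble controls. These values lay below the lower quartile of all signals (2.11), and the whole span over 7 arrays was 0.33. The log2 difference of the CtBP2 knockdown from scramble was -0.24 ± 0.12 (95% interval -0.54 to 0.06, adjusted p = 0.529). ENTPD2 had 4.04 and 3.88 with CtBP2 knockdown, 3.97, 3.71 and 3.91 in the group labelled CtBP1 knockdown, and 4.10 and 3.45 in the scramble controls. The 2 controls enclosed every other array, and the difference from scramble was 0.19 ± 0.23 for the CtBP2 knockdown (95% interval -0.39 to 0.76, adjusted p = 0.728) and 0.09 ± 0.21 for the arrays labelled CtBP1 knockdown (adjusted p = 0.907).

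ADA, which deaminates adenosine, and DPP4, its docking protein, lay on opposite sides of the controls in the CtBP2 knockdown. ADA had log2 signals of 5.44 and 4.73 with CtBP2 knockdown, 4.29, 3.95 and 4.18 in the group labelled CtBP1 knockdown, and 3.21 and 4.25 in the scramble controls. Both CtBP2 knockdown arrays were above all others, while the controls differed from each other by -1.05 (scramble control 1 minus 2). The log2 difference of the CtBP2 knockdown from scramble was 1.35 ± 0.39, or 2.55-fold (95% interval 0.39 to 2.31, adjusted p = 0.393). It was 0.83 without scramble control 1 and 1.88 without scramble control 2, and its adjusted p ran from 0.0227 to 0.93 over the alternatives. From the arrays labelled CtBP1 knockdown the CtBP2 knockdown differed by 0.94 ± 0.36 (adjusted p = 0.603), a value that was 0.59 without CtBP2 knockdown array 1.

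DPP4, a membrane-bound dipeptidyl peptidase, varied most of the 9 genes, over 2.96 log2 units. It had log2 signals of 5.37 and 6.10 with CtBP2 knockdown, 8.18, 7.41 and 8.33 in the group labelled CtBP1 knockdown, and 6.83 and 7.95 in the scramble controls. Both CtBP2 knockdown arrays were below all 5 others, and the other 2 groups overlapped. The log2 difference of the CtBP2 knockdown from scramble was -1.65 ± 0.49, or 3.14-fold lower (95% interval -2.85 to -0.45, adjusted p = 0.396), and it was -2.21 without scramble control 1 and -1.09 without scramble control 2. From the arrays labelled CtBP1 knockdown it differed by -2.24 ± 0.45, or 4.72-fold lower, which ranked 19 by size among 17958 genes and did not pass (95% interval -3.34 to -1.14, adjusted p = 0.286, and 0.0385 to 1 over the alternatives). The arrays labelled CtBP1 knockdown differed from scramble by 0.59 ± 0.45 (adjusted p = 0.736), by 0.03 without scramble control 1 and by 1.15 on leaving out scramble control 2.

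**Figure D2:**
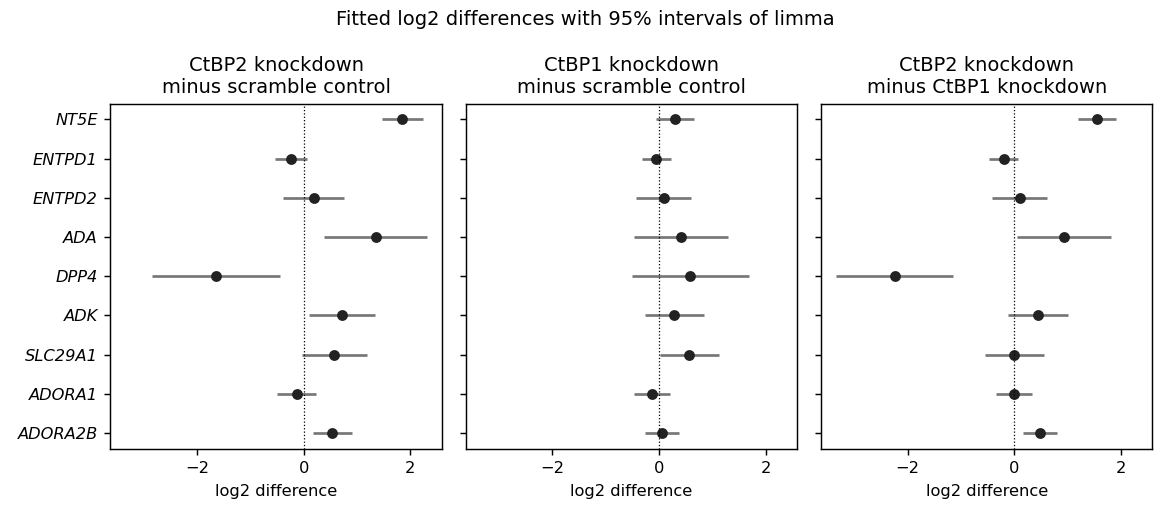
Fitted log2 differences (horizontal axis) of 9 adenosine pathway genes in the 3 comparisons, with bars for the 95% intervals of the limma fit. In both comparisons of the CtBP2 knockdown the intervals of NT5E, ADA, DPP4 and ADORA2B lay on 1 side of 0, while against scramble only that of SLC29A1 did so for the arrays labelled CtBP1 knockdown. The intervals are not adjusted for the number of genes.

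The intracellular route of adenosine gave smaller differences. ADK, which returns adenosine to AMP, had log2 signals of 6.97 and 6.80 with CtBP2 knockdown, 6.28, 6.65 and 6.42 in the group labelled CtBP1 knockdown, and 5.83 and 6.50 in the scramble controls. Its difference between CtBP2 knockdown and scramble was 0.72 ± 0.25 (95% interval 0.11 to 1.34, adjusted p = 0.438), with 0.39 left without scramble control 1 and 1.06 on leaving out scramble control 2. The transporter SLC29A1 had 6.86 and 6.51 with CtBP2 knockdown, 6.58, 6.59 and 6.87 in the group labelled CtBP1 knockdown, and 5.81 and 6.41 in the scramble controls. Every knockdown array lay above both controls. The log2 difference from scramble was 0.57 ± 0.25 for the CtBP2 knockdown (adjusted p = 0.502) and 0.57 ± 0.23 for the arrays labelled CtBP1 knockdown (adjusted p = 0.734), and the knockdowns differed from each other by 0.00 ± 0.23 (95% interval -0.55 to 0.55). Without scramble control 1, the array with the lowest SLC29A1 signal, the difference from scramble was 0.27 for the CtBP2 knockdown and 0.26 for the arrays labelled CtBP1 knockdown.

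Of the receptors, ADORA2B, a low-affinity receptor that couples to cAMP production, had log2 signals of 4.35 and 4.33 with CtBP2 knockdown, 4.04, 3.72 and 3.80 in the group labelled CtBP1 knockdown, and 3.86 and 3.74 in the scramble controls. Both CtBP2 knockdown arrays lay above the others, and the other 2 groups overlapped. The log2 difference from scramble was 0.54 ± 0.15, or 1.46-fold (95% interval 0.18 to 0.90, adjusted p = 0.374), and from the arrays labelled CtBP1 knockdown 0.49 ± 0.13 (adjusted p = 0.452). It kept a value of 0.48 to 0.60 without either control in turn. ADORA1, which lowers cAMP, had 2.61 and 2.51 with CtBP2 knockdown, 2.61, 2.52 and 2.55 in the group labelled CtBP1 knockdown, and 2.87 and 2.51 in the scramble controls. Its signal was dim throughout and spanned 0.36 over 7 arrays, and the difference from scramble was -0.13 ± 0.15 for the CtBP2 knockdown (95% interval -0.50 to 0.24, adjusted p = 0.712).

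Counted over the 9 genes, none passed an adjusted p of 0.05 in any comparison (limma). Over all 17958 genes the share that passed was 0.00557% (1 gene) in CtBP2 knockdown against scramble, 0% in the group labelled CtBP1 knockdown against scramble and 0% between the knockdowns. At an unadjusted p under 0.05 there were 5 of the 9 for CtBP2 knockdown against scramble, where the share over all genes was 10.2%. In the group labelled CtBP1 knockdown SLC29A1 was the 1 of 9, beside 4.79% of all genes, and 4 of 9 for the direct comparison beside 7.77%. Of the 9 genes, 5 lay wholly above and 2 wholly below the controls in the CtBP2 knockdown, where all genes gave 19.3% and 21.7%. For the arrays labelled CtBP1 knockdown 2 lay wholly above the controls and 0 below, beside 6.76% and 7.59% of all genes. In the direct comparison 4 were wholly higher in the CtBP2 knockdown and 2 wholly lower, beside 15.8% and 16.2%. The genes are few and were chosen with results known. The median log2 difference over the 9 was 0.54, 0.29 and 0.10 in the 3 comparisons, beside -0.02, 0.00 and -0.01 over all genes. The counts at an unadjusted p under 0.05 changed when an array was left out. The share over all genes changed too, not always in the same direction. Against scramble the CtBP2 knockdown had 4 of 9 without scramble control 1 (10.4% of all genes), 6 of 9 without scramble control 2 (39.7%) and 2 of 9 without CtBP2 knockdown array 1 (4.33%). The group labelled CtBP1 knockdown had 2 of 9 without scramble control 1 (7.68%), 4 of 9 without scramble control 2 (36.3%) and 0 of 9 without any other single array (2.76% to 4.42%). Between the knockdowns there were 3 of 9 without any single array labelled CtBP1 knockdown (5.89% to 7.2%). The count there was lower without CtBP2 knockdown array 1 and higher without either control.

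**Figure D3:**
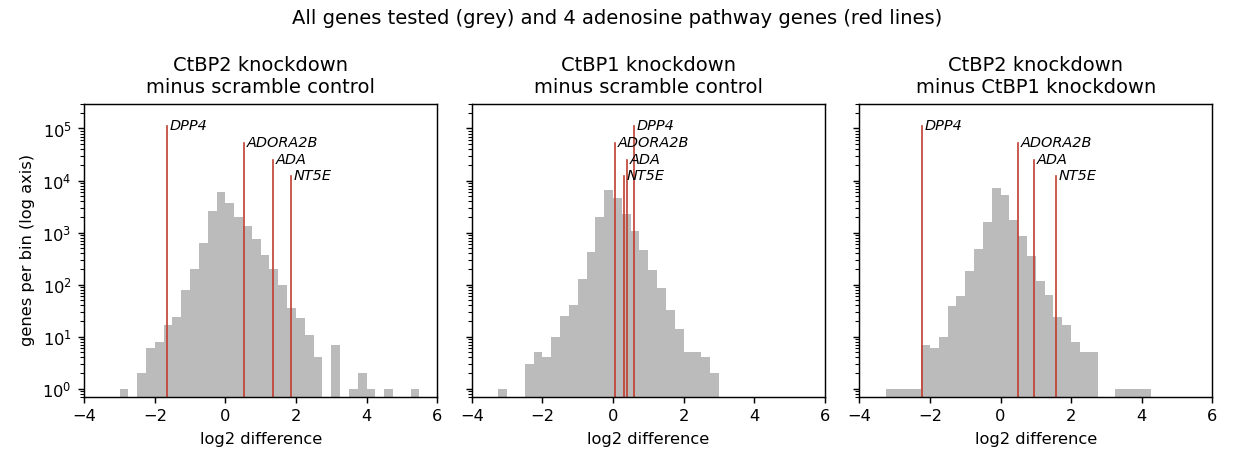
Number of genes (log axis) per bin of 0.25 log2 units of difference in the 3 comparisons, with red lines at the differences of NT5E, ADA, ADORA2B and DPP4. In the CtBP2 knockdown NT5E and ADA lay at percentiles 99.6 and 98.5 of all 17958 genes and DPP4 at 0.128, while ADORA2B, at 85.9, lay within the bulk.

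**Figure D4:**
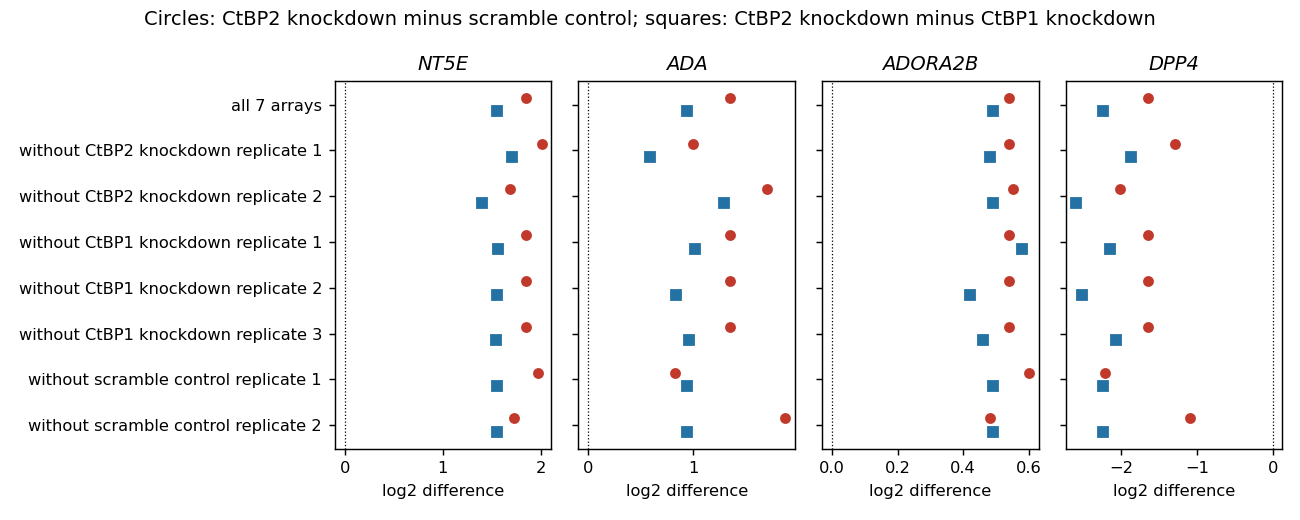
Log2 difference (horizontal axis, its own scale in each panel) of NT5E, ADA, ADORA2B and DPP4 with all 7 arrays and without each array in turn; circles are CtBP2 knockdown minus scramble and squares CtBP2 minus CtBP1 knockdown. Each gene stayed on 1 side of 0 throughout, ADA against scramble spread from 0.83 to 1.88, and DPP4 against scramble from -2.21 to -1.09.

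Other genes of purine handling were read from lists drawn up by function with earlier results known, and 0 of them passed in any comparison with all 7 arrays (limma). On leaving out scramble control 2, which leaves the array that stands apart as the lone control, many of all genes passed against scramble. Genes of these lists passed too, in both comparisons with scramble. Resting on a lone control, these calls are not read as a result about the lists. Of 17 other genes of extracellular nucleotide breakdown and release, 2 had an unadjusted p under 0.05 in the CtBP2 knockdown against scramble, both higher, beside 10.2% of all genes, so the count was near the background, and the median log2 difference was -0.06. The genes were PANX1, a channel that releases ATP, at 1.12 ± 0.21 (adjusted p = 0.245), and ENTPD4, an intracellular relative of ENTPD1, at 0.69 ± 0.23 (adjusted p = 0.428), or 0.82 and 0.43 without scramble control 1. PANX1 had log2 signals of 5.11 and 5.11 with CtBP2 knockdown, 4.20, 4.12 and 4.32 in the group labelled CtBP1 knockdown, and 3.68 and 4.29 in the scramble controls. Both CtBP2 knockdown arrays were above all others. Against the arrays labelled CtBP1 knockdown it differed by 0.90 ± 0.19 (adjusted p = 0.3).

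Among 20 measured genes listed under intracellular adenosine and AMP metabolism the median was 0.17 in the CtBP2 knockdown, and 0.11 without scramble control 1. At an unadjusted p under 0.05 (limma) there were 3 higher and 1 lower, where all 17958 genes gave 1291 higher and 536 lower. The lower one was ADA2, a secreted enzyme although listed here, at -0.32 ± 0.13, opposite in sign to ADA. HPRT1, which salvages hypoxanthine, differed from scramble by 1.05 ± 0.26 (adjusted p = 0.355), and the adenylate kinases AK1 and AK4 by 0.90 ± 0.31 and 0.37 ± 0.13 (adjusted p = 0.44 and 0.45). Without scramble control 1 the differences were 0.70 for HPRT1, 0.47 for AK1 and 0.30 for AK4. The 6 other nucleoside transporters had a median of -0.10 and the 14 measured purinergic receptors one of -0.07, with 0 at an unadjusted p under 0.05 in either list. For the arrays labelled CtBP1 knockdown the medians of these 4 lists lay between -0.05 and 0.00. There P2RY2, a receptor for ATP and UTP, had the only unadjusted p under 0.05 in the 4 lists, beside 4.79% of all genes (limma). It differed from scramble by 1.44 ± 0.54 (adjusted p = 0.734). Its signals were 5.56 and 5.01 with CtBP2 knockdown, 5.63, 6.51 and 5.33 in the group labelled CtBP1 knockdown, and 3.62 and 5.15 in the scramble controls, so the lowest value was that of scramble control 1, without which the difference was 0.68.

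Downstream of the receptors, 25 measured genes of cAMP signalling had a median of -0.01 in the CtBP2 knockdown. Only PDE4D, which degrades cAMP, had an unadjusted p under 0.05 (limma), at -0.39 ± 0.15 (adjusted p = 0.464). This was 1 of 25, beside 10.2% of all genes, so the list held no excess. The 13 measured cAMP- and adenosine-responsive genes had a median of -0.27, and of -0.12 without scramble control 1. Of these, 6 lay wholly below the controls and 2 wholly above, beside 21.7% and 19.3% of all genes. At an unadjusted p under 0.05 (limma) there were 2 higher, IL6 and THBS1, and 1 lower, beside 10.2% of all genes. The lower one was PPARGC1A, a transcriptional co-activator, at -0.47 ± 0.14 (adjusted p = 0.393), or -0.33 without scramble control 1. Its signals, from 1.33 to 1.95, lay below the lower quartile of all signals (2.11). IL6, an inflammatory cytokine, had log2 signals of 7.27 and 5.38 with CtBP2 knockdown, 6.01, 7.27 and 5.38 in the group labelled CtBP1 knockdown, and 3.13 and 3.43 in the scramble controls. All 5 knockdown arrays were above the controls, and the values 7.27 and 5.38 occur in both knockdown groups. The differences were 3.04 ± 0.79 for the CtBP2 knockdown (adjusted p = 0.357) and 2.94 ± 0.72 for the arrays labelled CtBP1 knockdown (adjusted p = 0.734). THBS1, the matrix protein thrombospondin, had 10.65 and 9.85 with CtBP2 knockdown, 9.61, 8.36 and 7.82 in the group labelled CtBP1 knockdown, and 3.25 and 8.08 in the scramble controls. Its difference of 4.58 ± 1.51 in the CtBP2 knockdown (adjusted p = 0.429) thus rested on controls that were far apart, and was 2.17 without scramble control 1. The difference of the arrays labelled CtBP1 knockdown was 2.93 ± 1.38 (adjusted p = 0.734), or 0.51 without scramble control 1.

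A list of 18 transcription factors that may act on NT5E had a median of 0.05 in the CtBP2 knockdown against scramble and 0.05 for the arrays labelled CtBP1 knockdown. In the CtBP2 knockdown 4 were higher and 3 lower at an unadjusted p under 0.05 (limma), beside 10.2% of all genes in either direction. Of the 18, 5 lay wholly above and 6 wholly below the controls, beside 19.3% and 21.7% of all genes. Their median was -0.13 without scramble control 1 and 0.26 on leaving out scramble control 2. Among the lower ones TCF7L2, a factor of Wnt signalling, differed from scramble by -0.48 ± 0.14 (adjusted p = 0.393). NFKB1, an NF-kB subunit, had log2 signals of 6.16 and 6.12 with CtBP2 knockdown, 5.08, 4.85 and 4.89 in the group labelled CtBP1 knockdown, and 4.77 and 4.84 in the scramble controls. It was highest on both CtBP2 knockdown arrays, with a difference from scramble of 1.34 ± 0.13 (adjusted p = 0.153) and from the arrays labelled CtBP1 knockdown of 1.20 ± 0.12 (adjusted p = 0.129). So was SMAD2, at 6.57 and 6.70 there and at most 6.37 elsewhere. RELA, the other NF-kB subunit listed, differed from scramble by -0.11 ± 0.22 in the CtBP2 knockdown. Whether any of these factors acts on NT5E here was not tested. EPAS1, a hypoxia-inducible factor, had 6.25 and 5.72 with CtBP2 knockdown, 6.72, 6.06 and 6.57 in the group labelled CtBP1 knockdown, and 4.73 and 4.68 in the scramble controls. It was above the controls on all 5 knockdown arrays, by 1.28 ± 0.27 in the CtBP2 knockdown (adjusted p = 0.291) and 1.75 ± 0.25 on those labelled CtBP1 knockdown (adjusted p = 0.734). With all 7 arrays the 9 other dipeptidyl peptidases and relatives of DPP4 had a median of -0.01 in the CtBP2 knockdown, with 0 at an unadjusted p under 0.05.

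**Figure D5:**
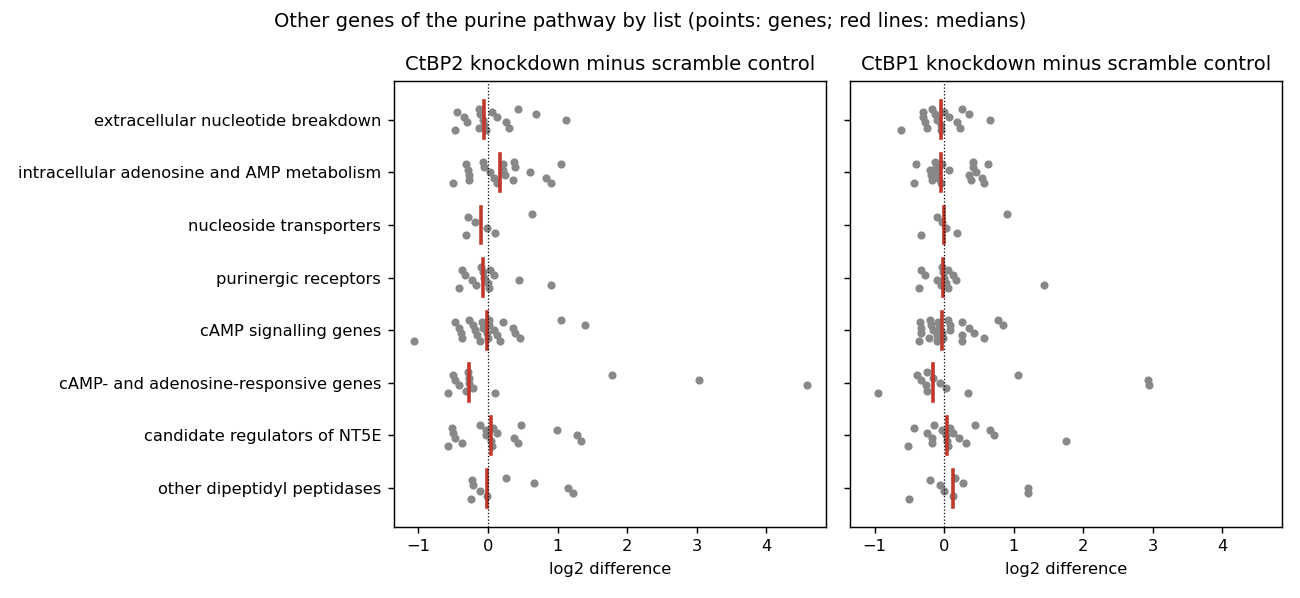
Log2 differences from scramble control of the measured genes of 8 fixed lists (points; red lines are list medians) for the CtBP2 knockdown and for the arrays labelled CtBP1 knockdown. The medians lay between -0.27 and 0.17 in the CtBP2 knockdown, and the points beyond 3 are IL6 and THBS1 in that comparison.

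The genes with the pattern most like that of NT5E over the 7 arrays, by Pearson's r and as a description, were COX14 (r = 0.990), the immunoproteasome subunit PSMB9 (0.987), the DNA repair enzyme APTX (0.979), SFXN2 (0.979) and ITGB1, the integrin beta-1 subunit (0.978). APTX spanned only 3.13 to 3.23, PSMB9 3.87 to 5.40 and ITGB1 7.17 to 8.07. Of the genes eligible by symbol 35 had an r above 0.95, and none of these 5 stayed among the 5 highest over the 6 arrays without scramble control 1. For DPP4, the gene with the widest range, the most alike were PPP1R10 (0.988), SP110 (0.984), XRCC4 (0.984), GLT8D2 (0.964) and ZNF135 (0.962), of which PPP1R10 stayed among the 5 highest without scramble control 1 (r = 0.990). Between the adenosine genes themselves, NT5E correlated with ADORA2B at 0.93, with ADA at 0.74 and with DPP4 at -0.82 over 7 arrays, and at 0.93, 0.80 and -0.91 without scramble control 1. These arrays fall into 3 groups, so the values restate the group means.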

How the data were processed

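RNA of 7 SKOV3 arrays was profiled on Affymetrix Human Gene 1.1 ST arrays. The authors deposited 1 log2 signal per transcript cluster and array. The submitters' processing notes name Expression Console and RMA. Version and genome build are not given in the sources used here. Groups come from the sample titles. Of 33297 clusters, 19181 carry 1 symbol in the platform annotation, 2055 carry several and 12061 are not listed. Symbols were updated through Entrez identifiers (RefSeq, GRCh38.p14) for 17930 of 17958 genes, and the brightest cluster per gene was kept. Linear models with 3 group means were fitted with limma 3.58.1 (lmFit, eBayes) in R 4.3.3 on all 7 arrays (4 residual degrees of freedom). Tests are two-sided, with Benjamini-Hochberg adjustment over all genes within a comparison and a threshold of 0.05. The fit was tested on simulated data. Figures used matplotlib 3.10.9.

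The members, lists and tests were chosen with earlier results of these data known. Named genes are the members, the targeted genes, up to 3 genes of the smallest p per list and comparison, and the 5 genes most like NT5E and DPP4, with placeholder and non-coding symbols passed over. ADA2 and RELA are named besides. The alternatives were renewed quantile normalization, median centring, a filter on dim genes, mean of clusters, variance trend, robust eBayes, fits on 2 groups, array weights, a replicate block and leaving out each array. Values identical on several arrays occurred in 40% of the genes. Among the members only ADORA1 did, between a CtBP2 knockdown array and one labelled CtBP1 knockdown.

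Whether replicate numbers pair arrays was checked by correlating same-numbered deviations from the group means over genes. The correlations ran from -0.35 to 0.10, and the numbers were not treated as pairs. In a group of 2 arrays the deviations mirror each other, so this check could not exclude pairs.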

Additional observations from a re-analysis of the deposited data

Results flagged for a closer look

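CTBP2 and TCF7L2 lay below both scramble arrays on every CtBP2 knockdown array and above both in the whole group labelled CtBP1 knockdown. This pattern was sought only among the members, the targeted genes and the list genes of smallest p. Of all genes, 21.7% lay wholly below the controls in the CtBP2 knockdown. In the group labelled CtBP1 knockdown 6.76% lay wholly above, and the share with both was not counted. CTBP2 is the targeted gene. It had 6.25, 6.31 and 6.27 in the group labelled CtBP1 knockdown, against 5.70 and 6.14 in the controls. For CTBP2 itself the log2 difference from scramble was -1.49 ± 0.21 in the CtBP2 knockdown and 0.36 ± 0.19 in the group labelled CtBP1 knockdown, and the direct difference (CtBP2 minus CtBP1 knockdown) was -1.85 ± 0.19 (limma, adjusted p = 0.129).

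TCF7L2, a transcription factor of Wnt signalling listed as a possible regulator of NT5E, had log2 signals of 5.67 and 5.75 with CtBP2 knockdown, 6.84, 6.69 and 6.99 in the group labelled CtBP1 knockdown, and 6.15 and 6.22 in the scramble controls. Its difference from scramble was -0.48 ± 0.14 in the CtBP2 knockdown and 0.66 ± 0.13 in the group labelled CtBP1 knockdown, and the direct difference was -1.14 ± 0.13 (limma, adjusted p = 0.129). The direct difference did not pass for either gene.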

How the results depend on the processing

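Of 27 differences (9 genes in 3 comparisons) 8 changed sign under at least 1 of up to 16 alternatives, none of them of NT5E or DPP4, and 2 more, SLC29A1 and ADORA1 between the knockdowns, were 0.00 and took both signs (-0.17 to 0.18 and -0.05 to 0.06). CtBP2 knockdown against scramble gave 1 gene past the threshold, and 0 with renewed quantile normalization, median centring, robust eBayes, only 2 groups, array weights or a replicate block. Leaving out each array gave 0 to 3952 genes and 0 to 4 of the 9 (NT5E, ADA, ADK and SLC29A1), the highest counts without scramble control 2. For the arrays labelled CtBP1 knockdown the counts were 0 to 3262 and 0 to 1 (SLC29A1), again highest without scramble control 2. In the direct comparison array weights called 272 genes and 2 of the 9, NT5E and DPP4. The replicate block, whose numbers were not treated as pairs in the main fit, left NT5E at 1.85 (adjusted p = 0.554) against scramble and called none of the 9. Signs turned in the CtBP2 knockdown for ADORA1 (0.02 with renewed quantile normalization and with median centring, and -0.31 to 0.05 on leaving out 1 array) and ENTPD2 (-0.14 to 0.51). On the arrays labelled CtBP1 knockdown they turned with renewed quantile normalization for ENTPD1 (0.04), ENTPD2 (-0.05) and ADORA2B (-0.03), with median centring for ENTPD1 (0.04), without scramble control 1 for ADA (-0.11 to 0.93 over the arrays left out), ADK (-0.05 to 0.62) and ADORA1 (-0.31 to 0.04), without scramble control 2 for ENTPD2 (-0.24 to 0.41) and ADORA2B (-0.01), and without CtBP1 knockdown array 1 for ADORA2B (-0.04 to 0.12). The cause was not tested. Median centring moved the median of all genes to 0.13 in the CtBP2 knockdown against scramble, where NT5E was 2.00, ADA 1.50, ADORA2B 0.69 and DPP4 -1.50. A lone array left in a group is assumed to vary like the others. ENTPD1 and ADORA1 are dim, so small differences in them are hard to measure.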
